A study of Mus musculus with 6 samples.

Results

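Kit, the receptor for stem cell factor, and 9 genes whose products act next to it in the cell were examined in leukaemia RNA: the kinase gene Lyn, the adaptor genes Grb2, Gab2 and Sh2b3, the PI3-kinase subunit gene Pik3r1, the transcription factor gene Stat5a, the phosphatase genes Ptpn6 and Inpp5d, and the ubiquitin ligase gene Cbl. The genes were chosen by symbol from what is known of Kit signalling, with earlier results of these data also known. All 10 were found among the 43629 gene IDs of the count table and passed the filter on low counts that left 15432 genes. The libraries came from bone marrow of C57BL/6 mice that carried Cbfb-MYH11 and had reached the leukaemia end point, with 3 Gata2+/f libraries (replicates 7, 9 and 11) set against 3 Gata2+/+ libraries (replicates 3, 5 and 6). Cbfb-MYH11, which both groups carried, copies the fusion made by inversion 16 in human acute myeloid leukaemia. Gata2+/f mice had 1 Gata2 allele that the labels write as f. Age, sex, the exact change in the f allele and any Cre that acts on it are not given in the sources used here. The marrow had been frozen, thawed and sorted for c-kit, the protein that Kit encodes, before poly-A RNA was sequenced. The labels do not say whether each library was 1 animal, so p-values measure the spread between these samples, which may be technical.

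Kit is a tyrosine kinase of the class III receptor family, found on blood stem cells, early progenitors and mast cells. Stem cell factor pairs Kit molecules, which then phosphorylate each other on tyrosines that serve as docking sites. Src family kinases such as Lyn, adaptors such as Grb2 and Gab2, and the p85 subunit of PI3-kinase gather there and pass the signal to RAS, AKT and STAT5. Cbl tags the active receptor for breakdown, while Sh2b3 (LNK), Ptpn6 (SHP-1) and Inpp5d (SHIP1) damp the signal. Activating KIT mutations recur in human inversion 16 leukaemia, and GATA2 is a known activator of Kit transcription in progenitors and mast cells.

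Libraries held 53789568 to 67854631 expected counts (read counts estimated by RSEM), at which 3 counts equal 0.0424 to 0.0600 CPM (counts per 1000000, after TMM scaling), and every pair of libraries differed by more than sampling noise. Gata2 itself, the gene whose allele differs between the groups, had 498, 273 and 264 CPM in Gata2+/f replicates 7, 9 and 11, against 886, 887 and 737 CPM in Gata2+/+ replicates 3, 5 and 6. All 3 Gata2+/f values lay below all Gata2+/+ values, with a log2 fold change of −1.28 (SE 0.32, edgeR adjusted p = 0.109). Cell type markers also differed between the groups (below). Their part in the Gata2 level was not tested, so that level is no check of the genotype labels. Gata2+/f replicate 9 stood apart by transcript length. Well-expressed genes were ranked by transcript length into 5 equal classes. In the longest class (5.14 kb or more) log2 CPM in this library deviated from the across-library value of the gene by a median of −0.63, against −0.070 to 0.20 in the other 5 libraries. In the shortest class it was 0.32, against −0.10 to 0.059. Of the 10 genes, 4 have transcripts in the longest class (Kit, Gab2, Pik3r1 and Cbl) and 3 in the next (Sh2b3, Inpp5d and Stat5a). For these genes the log2 fold change is also given without that library or with the length trend removed. The length trend was removed as an alternative chosen after the data had been seen.

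**Figure D1:**
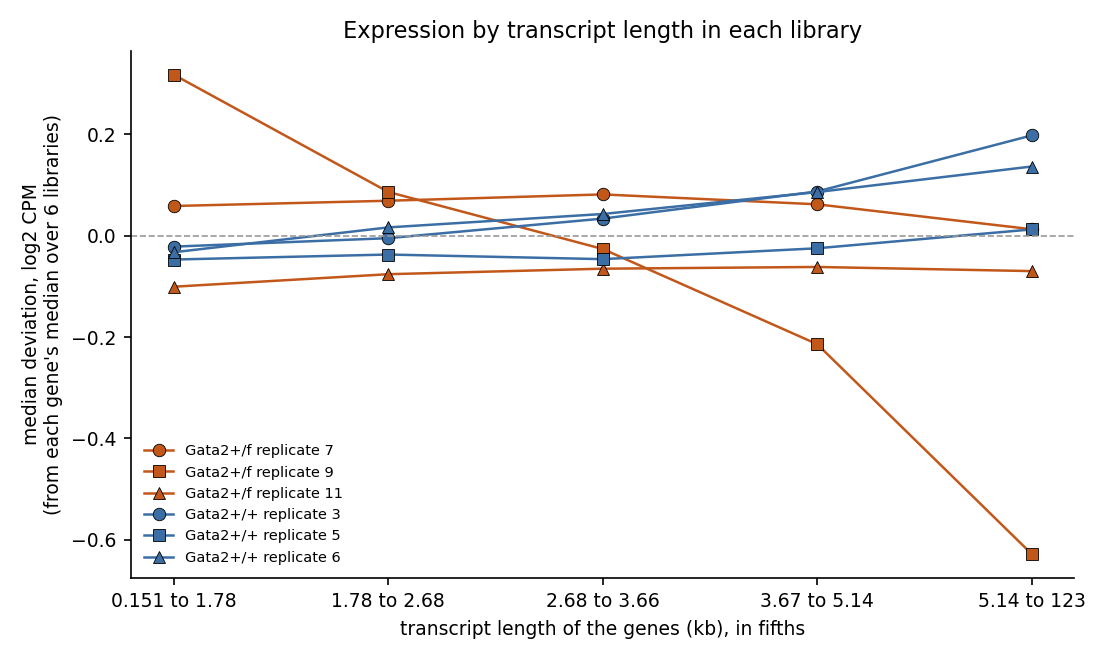
Median deviation of log2 CPM from the across-library value of each gene (vertical axis) for genes in 5 equal classes of transcript length in kb (horizontal axis), 1 line per library, Gata2+/f in orange and Gata2+/+ in blue. Gata2+/f replicate 9 lies at −0.63 in the longest class, where the other 5 libraries lie between −0.070 and 0.20.

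Kit RNA lay lower in every Gata2+/f library than in any Gata2+/+ library, by the widest margin of the 10 genes. Kit lies on the forward strand of chromosome 5 of GRCm38, from 75574916 to 75656722, and encodes the receptor used for the sort. It had 193, 175 and 328 CPM in Gata2+/f replicates 7, 9 and 11, against 826, 1222 and 1466 CPM in Gata2+/+ replicates 3, 5 and 6. The highest Gata2+/f value was thus well below the lowest Gata2+/+ value. The fitted level in Gata2+/f was 19.8% of that in Gata2+/+ (log2 fold change −2.34, SE 0.36, 95% interval −3.18 to −1.49). Kit ranked 39 of 15432 genes by p, but its adjusted p was 0.0955 in edgeR's quasi-likelihood test (Benjamini-Hochberg over all genes), which is above the threshold of 0.05. DESeq2's Wald test called it lower (log2 fold change −2.31, adjusted p = 2.33e-06). With 1 library left out the log2 fold change ranged from −2.63 to −2.11, and with the length trend removed it was −2.11. In these sorted but mixed cells, fewer cells with much Kit RNA and less Kit RNA per cell cannot be told apart.

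Set against the c-kit sort, Kit CPM per kb of transcript ranked 1991, 2211 and 994 among 15263 genes in Gata2+/f replicates 7, 9 and 11, against 464, 257 and 233 in Gata2+/+ replicates 3, 5 and 6. Kit was therefore among the more abundant RNAs of every library and further down the order in each Gata2+/f library. Its ligand gene Kitl, which stromal cells express, had 4, 0 and 14 counts in Gata2+/f replicates 7, 9 and 11, against 2, 14 and 6 counts in Gata2+/+ replicates 3, 5 and 6, and did not pass the filter. Splice forms of Kit cannot be told apart in gene-level counts.

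The promoter of Kit is shown because Kit had the largest difference of the 10 genes, and those of Inpp5d and Pik3r1 because, of the 8 genes with an entry, only these held a GATA motif. Entries came from RefSeq (GRCm38.p6) and run from 250 bases before to 50 after a start site, 5′ to 3′ on the strand of the gene. Lyn and Gab2 had no entry. The 6-letter motifs searched on both strands were AGATAA (the usual form), TGATAA (with T first), AGATAG (with G last) and TGATAG (with both changes), and capitals mark a match to one of them or to its reverse complement. The windows are chr5:75574737-75575036 (forward strand) for Kit, chr1:87620062-87620361 (forward) for Inpp5d and chr13:101692581-101692880 (reverse) for Pik3r1.
Kit: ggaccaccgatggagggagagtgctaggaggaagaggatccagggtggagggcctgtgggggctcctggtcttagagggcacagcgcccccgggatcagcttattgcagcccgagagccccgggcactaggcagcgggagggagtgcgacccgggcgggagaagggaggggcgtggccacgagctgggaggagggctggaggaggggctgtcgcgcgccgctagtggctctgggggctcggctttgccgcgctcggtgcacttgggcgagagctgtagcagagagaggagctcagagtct
Inpp5d: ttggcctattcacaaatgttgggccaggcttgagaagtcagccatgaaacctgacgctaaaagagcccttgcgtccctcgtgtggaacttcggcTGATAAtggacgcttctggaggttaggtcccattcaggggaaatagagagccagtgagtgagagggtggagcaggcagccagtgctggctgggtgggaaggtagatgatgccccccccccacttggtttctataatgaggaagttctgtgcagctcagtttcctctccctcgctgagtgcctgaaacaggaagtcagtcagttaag
Pik3r1: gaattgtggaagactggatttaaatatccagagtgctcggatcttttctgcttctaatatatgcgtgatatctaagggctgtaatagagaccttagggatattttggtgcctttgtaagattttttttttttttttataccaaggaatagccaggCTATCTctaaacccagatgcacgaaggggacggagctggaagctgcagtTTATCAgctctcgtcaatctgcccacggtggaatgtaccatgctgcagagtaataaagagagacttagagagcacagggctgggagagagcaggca
Inpp5d holds 1 match, TGATAA, that begins 156 bases before the start. Pik3r1 holds 2 matches in this window, which belongs to the more downstream of its 2 entries, while its other entry has none. Neither of the 2 overlapping Kit entries holds a match. At least 1 match was present in 29.8% of the 32851 windows of the table and in 33% of its 27025 genes, against 2 of the 8 genes here. Of the motifs of the RUNX partners of Cbfb (TGTGGT or TGCGGT, found in 22.4% of all windows, added after the data had been seen), 1 was found, in Stat5a. These matches describe letters in short windows. Regulatory regions that lie further away were not covered.

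**Figure D2:**
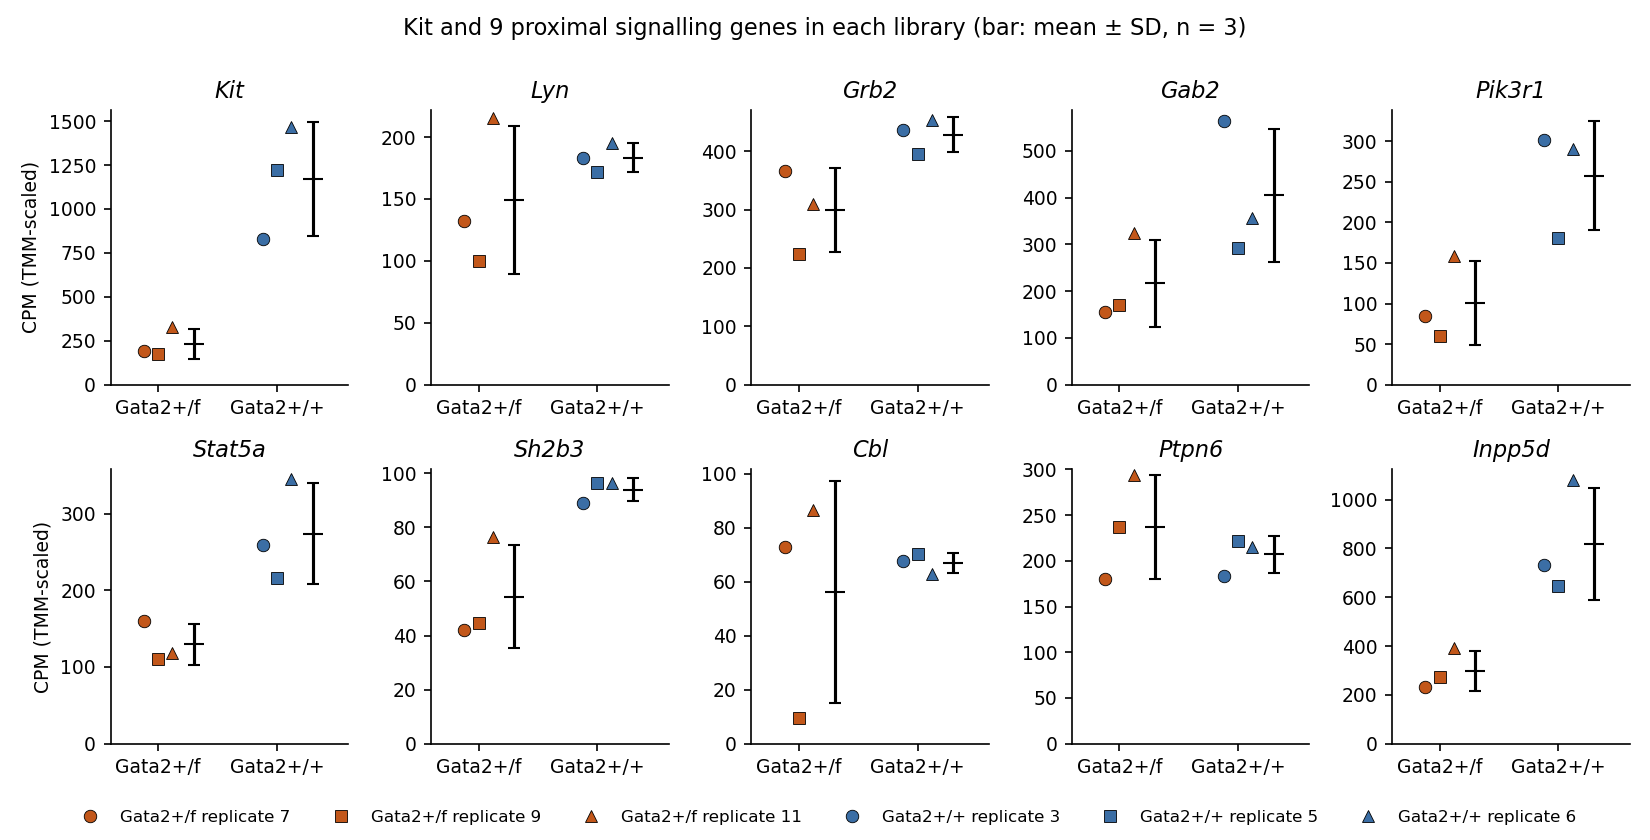
TMM-scaled CPM (vertical axes, from 0) of Kit and the 9 other genes in 3 Gata2+/f (orange, left) and 3 Gata2+/+ (blue, right) libraries, with marker shapes for replicates and a bar for mean ± SD (n = 3 each). Kit, Pik3r1, Stat5a, Sh2b3, Inpp5d and Grb2 have no overlap between the groups, and Cbl in Gata2+/f replicate 9 sits at 9.49 CPM, apart from the other 5 libraries.

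Among the genes that carry the signal forward, Pik3r1 and Stat5a differed most and Lyn least. Pik3r1, whose products include the p85 alpha subunit that docks PI3-kinase on Kit (chr13:101680563-101768217, reverse strand), had 84.8, 59.4 and 159 CPM in Gata2+/f replicates 7, 9 and 11, against 302, 181 and 291 CPM in Gata2+/+ replicates 3, 5 and 6. The groups did not overlap, though Gata2+/f replicate 11 came near Gata2+/+ replicate 5. The log2 fold change was −1.35 (SE 0.40, edgeR adjusted p = 0.136), and DESeq2 called the gene lower (adjusted p = 0.0466). It was −1.02 without Gata2+/f replicate 9 and −0.99 with the length trend removed.

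Stat5a encodes a transcription factor that is activated downstream of Kit and of cytokine receptors (chr11:100859351-100885169, forward strand). It had 159.9, 109.9 and 119 CPM in Gata2+/f replicates 7, 9 and 11, against 259, 217 and 346 CPM in Gata2+/+ replicates 3, 5 and 6. The groups were separate, and the spread within Gata2+/f was the smallest of the 10 genes relative to the mean (20.7%). The log2 fold change was −1.08 (SE 0.27, edgeR adjusted p = 0.109), and DESeq2 called it lower (adjusted p = 0.0140). That log2 fold change became −0.97 with the length trend removed and −0.92 without Gata2+/f replicate 9.

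The adaptor genes lay lower by smaller amounts and were called by neither tool. Gab2, a scaffold that binds p85 and SHP-2 (chr7:97081586-97308946, forward strand), had 156, 171 and 323 CPM in Gata2+/f replicates 7, 9 and 11, against 565, 293 and 356 CPM in Gata2+/+ replicates 3, 5 and 6. Here Gata2+/f replicate 11 lay above Gata2+/+ replicate 5, so the groups overlapped, and the log2 fold change was −0.90 (SE 0.38, edgeR adjusted p = 0.216). It was −0.53 without Gata2+/+ replicate 3 and −0.57 with the length trend removed. Grb2, the adaptor that brings the RAS activator SOS to the receptor (chr11:115644045-115708597, reverse strand), had 367, 224 and 309 CPM in Gata2+/f replicates 7, 9 and 11, against 437, 395 and 453 CPM in Gata2+/+ replicates 3, 5 and 6. Its groups did not overlap, but the interval of the log2 fold change (−0.51, 95% interval −1.10 to 0.07) included 0, with an edgeR adjusted p of 0.266. The value was −0.29 without Gata2+/f replicate 9.

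Lyn, the Src family kinase of many myeloid cells and mast cells (chr4:3678115-3813122, forward strand), had 132, 99.9 and 215 CPM in Gata2+/f replicates 7, 9 and 11, against 183, 172 and 195 CPM in Gata2+/+ replicates 3, 5 and 6. Gata2+/f thus spread over both sides of the narrow Gata2+/+ range. The log2 fold change was −0.30 (95% interval −0.997 to 0.40, edgeR adjusted p = 0.579), and it was −0.023 without Gata2+/f replicate 9. Leaving out Gata2+/f replicate 11 instead gave −0.61 (edgeR unadjusted p = 0.0361, adjusted p = 0.187). A difference was not detectable with all 6 libraries, which does not show that the levels were alike.

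The genes that restrain Kit had log2 fold changes of either sign. Inpp5d, the lipid phosphatase SHIP1 that removes the product of PI3-kinase (chr1:87620312-87720507, forward strand), had 233, 273 and 391 CPM in Gata2+/f replicates 7, 9 and 11, against 731, 648 and 1081 CPM in Gata2+/+ replicates 3, 5 and 6. The groups lay well apart, with Gata2+/f at 36.4% of the Gata2+/+ level by the fit (log2 fold change −1.46, SE 0.32, edgeR adjusted p = 0.0966). DESeq2 called it lower (adjusted p = 0.00324). With the length trend removed the log2 fold change of Inpp5d was −1.22, and without Gata2+/f replicate 9 it was −1.34. The other well-expressed genes of its chromosome, chromosome 1, had median deviations from −0.20 in Gata2+/f replicate 9 to 0.21 in Gata2+/+ replicate 6, with a difference between the group means of −0.16, and its part in the result was not tested. For the chromosomes of the other 9 genes that difference stayed between −0.044 and 0.048.

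Sh2b3, an adaptor that dampens signals of Kit and of JAK2 (chr5:121815488-121837646, reverse strand), had 42.1, 44.6 and 76.4 CPM in Gata2+/f replicates 7, 9 and 11, against 88.9, 96.4 and 96.6 CPM in Gata2+/+ replicates 3, 5 and 6. The groups did not overlap, with a log2 fold change of −0.79 (SE 0.27, edgeR adjusted p = 0.167) and no call by DESeq2 (adjusted p = 0.139). Its edgeR unadjusted p was 0.0214. With the length trend removed the log2 fold change of Sh2b3 was −0.64 (edgeR unadjusted p = 0.0518). Without Gata2+/f replicate 9 that value was −0.61 (edgeR unadjusted p = 0.0757). Ptpn6, the tyrosine phosphatase SHP-1 of blood cells (chr6:124720707-124738714, reverse strand), was the 1 gene of the 10 with a positive log2 fold change. It had 180.2, 237 and 294 CPM in Gata2+/f replicates 7, 9 and 11, against 184, 222 and 216 CPM in Gata2+/+ replicates 3, 5 and 6. The groups overlapped, and the log2 fold change was 0.20 (95% interval −0.38 to 0.77, edgeR adjusted p = 0.660).

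Cbl lay between 63.0 and 86.4 CPM in 5 libraries and far lower in the remaining one. Cbl, the ubiquitin ligase that sends active Kit to breakdown (chr9:44142976-44234049, reverse strand), had 72.7, 9.49 and 86.4 CPM in Gata2+/f replicates 7, 9 and 11, against 67.6, 70.5 and 63.0 CPM in Gata2+/+ replicates 3, 5 and 6. In Gata2+/f replicate 9 it was 6.64-fold below the lowest of the other 5 libraries, and 8.39-fold below the mean of Gata2+/f replicates 7 and 11. Over all libraries the log2 fold change was −0.25 with a wide interval (−1.79 to 1.28, edgeR adjusted p = 0.844). It turned to 0.30 without replicate 9 and to 0.12 with the length trend removed.

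That single low value was placed against other genes of the library. Among 9165 well-expressed genes 32, Cbl included, lay as far or further below the lowest of the other libraries in Gata2+/f replicate 9. Cbl has the longest transcript of the 10 genes (11.4 kb), and its deviation of −2.86 was further below 0 than the −0.63 of the longest class. The 5 nearest well-expressed genes on each side of it on chromosome 9 had a median deviation of −0.073 in that library (range −2.44 to 0.82). Other pathway genes, chosen after their values were seen, shared the pattern. Gab1, a relative of Gab2, had 44.1, 4.60 and 30.5 CPM in Gata2+/f replicates 7, 9 and 11, against 19.7 to 31.8 CPM in Gata2+/+. Inppl1, a relative of Inpp5d, had 43.2, 5.68 and 37.4 CPM in the same Gata2+/f libraries, against 31.0 to 61.7 CPM in Gata2+/+. The part of RNA quality in these values was not tested.

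Counted together, 9 of the 10 genes had negative log2 fold changes, where 48.9% of all genes tested did, and 1 had a positive one, as did 51.1% of all genes. The median of the 10 was −0.84 against 0.019 over all genes. None passed edgeR's test at an adjusted p under 0.05, as for all 15432 genes (0% called). At an unadjusted p under 0.05 there were 6 (Kit, Inpp5d, Stat5a, Pik3r1, Sh2b3 and Gab2), all lower in Gata2+/f, where 11.5% of all genes were lower by that rule and 11.1% higher. With the length trend removed, Sh2b3 (edgeR unadjusted p = 0.0518) and Gab2 (0.149) lay above that limit, while Grb2 (0.0492) came just under it. DESeq2 called 4 lower (Kit, Inpp5d, Stat5a and Pik3r1) and 0 higher, where it called 5.71% of genes lower and 6.08% higher. The newer form of edgeR's test called 0 of the 10 and 0.207% of all genes (0.0842% higher and 0.123% lower), and limma voom called 0 of the 10 and 0.0583%. For 6 of the 10 the groups were separate, all with Gata2+/f lower, where 16.6% of all genes were separate in that direction and 13.1% in the other. Leaving out 1 library gave 6 to 8 such genes, where 17.7% to 22.5% of all genes were then separate in that direction. Without Gata2+/f replicate 7 or 9, 1 of the 10 was separate and higher, where 20.4% and 20.1% of all genes were. As the 10 genes were chosen with earlier results known, these counts describe them and are no test of the group.

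**Figure D3:**
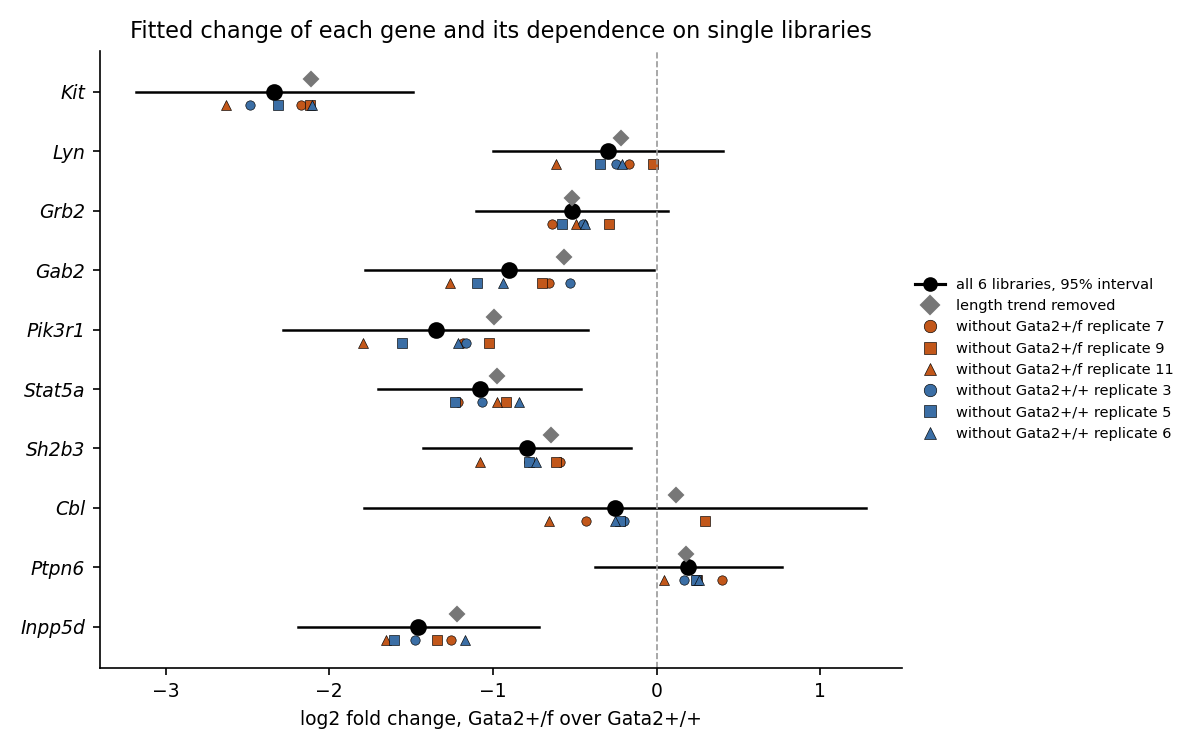
Log2 fold change of Gata2+/f over Gata2+/+ (horizontal axis) for each of the 10 genes, as fitted on all 6 libraries (black, with 95% interval), without each library in turn (coloured markers) and with the length trend removed (grey). Kit stays between −2.63 and −2.11, whereas Cbl crosses 0 without Gata2+/f replicate 9 and with the length trend removed.

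Among the Gata2+/f libraries, replicate 11 was most often the highest and replicate 9 most often the lowest. Replicate 11 had the highest value of the 3 for 8 of the 10 genes, all but Grb2 and Stat5a, where replicate 7 was highest. Replicate 9 had the lowest value for 6 genes, and replicate 7 for Sh2b3, Ptpn6, Inpp5d and Gab2. The spread was wider in Gata2+/f for 8 of the 10 genes when taken as SD over mean, for instance 39.9% in Gata2+/f and 6.31% in Gata2+/+ for Lyn. The exceptions were Inpp5d, with 27.5% in Gata2+/f and 28.0% in Gata2+/+, and Stat5a, with 20.7% in Gata2+/f and 24.0% in Gata2+/+.

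The order of levels per kb of transcript also differed between the groups. In Gata2+/f, Grb2 and Ptpn6 led with means of 110.7 and 103 CPM per kb, followed by Inpp5d at 60.5, Kit at 44.3, Lyn at 43.1, Gab2 at 35.1 and Stat5a at 33.3. Pik3r1 (14.2), Sh2b3 (12.96) and Cbl (4.94) were lowest. Neighbours in this order had overlapping ranges over the libraries, except Stat5a with Pik3r1 and Sh2b3 with Cbl. In Gata2+/+, Kit led at 223 CPM per kb, ahead of Inpp5d at 166, Grb2 at 158, Ptpn6 at 89.7, Stat5a at 70.4, Gab2 at 65.6 and Lyn at 52.9. Pik3r1 (36.2), Sh2b3 (22.4) and Cbl (5.89) again came last. There Kit, Inpp5d and Grb2 overlapped in turn, as did Ptpn6, Stat5a, Gab2 and Lyn, while Pik3r1, Sh2b3 and Cbl were each apart. Kit thus stood first in the order of Gata2+/+ means and 4th in that of Gata2+/f.

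Paralogs of the 10 genes were set beside them. Stat5b, the close copy of Stat5a beside it on chromosome 11, had 199, 122 and 159 CPM in Gata2+/f replicates 7, 9 and 11, against 310.3, 262 and 379 CPM in Gata2+/+ replicates 3, 5 and 6 (log2 fold change −0.99, edgeR adjusted p = 0.125). The log2 ratio of Stat5a to Stat5b had overlapping groups (−0.29 ± 0.14 in Gata2+/f and −0.22 ± 0.078 in Gata2+/+, SD, n = 3 each; exact permutation test, two-sided p = 0.4). Reads that these near-identical genes share are divided by RSEM's model, so the split between them is uncertain. Pik3r1 and Sh2b3 had ratios to their paralogs that were lower in every Gata2+/f library than in any Gata2+/+ library, each at the smallest p the exact permutation test allows with 3 against 3 (p = 0.1, adjusted p = 0.267 over 8 pairs computed).

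The log2 ratio of Pik3r1 to Pik3r2, the gene of p85 beta, was 1.06 ± 1.40 in Gata2+/f and 3.39 ± 0.66 in Gata2+/+ (SD, n = 3 each). Pik3r2 itself had 99.3, 32.4 and 27.3 CPM in Gata2+/f and 17.8, 26.4 and 29.0 CPM in Gata2+/+, so its groups overlapped. The log2 ratio of Sh2b3 to Sh2b2 was 2.55 ± 0.84 in Gata2+/f and 5.28 ± 1.19 in Gata2+/+, with Sh2b2 at 9.93 ± 5.07 CPM in Gata2+/f and 3.10 ± 2.73 CPM in Gata2+/+ and overlapping groups. Ratios of Cbl to Cblb, Ptpn6 to Ptpn11, Inpp5d to Inppl1 and Gab2 to Gab1 overlapped between the groups, with p from 0.7 to 1.

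The wider pathway, 78 further genes of which 74 passed the filter, was split in direction. Of the 74, 41 had negative and 33 positive values. Their median was −0.13, against 0.019 over all genes, and 0 passed edgeR's test at an adjusted p under 0.05. At an unadjusted p under 0.05 there were 14 lower and 10 higher, where 11.5% of all genes were lower and 11.1% higher by that rule. DESeq2 called 6 lower and 5 higher, where it called 5.71% of all genes lower and 6.08% higher. With the length trend removed the median was 0.072, against 0.054 over all genes in that setting. Groups did not overlap for 30 (40.5%, against 29.7% of all genes), 23 lower and 7 higher. Of all genes, 16.6% were separate and lower and 13.1% separate and higher.

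The roles within the pathway are counted with the 10 genes included. Among 8 Src family kinases 5 had positive values, with a median of 1.37. That median lies between Lck (log2 fold change 1.29) and Blk (1.45), both barely expressed and with overlapping groups. Mean levels of Lck were 1.21 CPM in Gata2+/f and 0.493 CPM in Gata2+/+. Those of Blk were 0.483 CPM in Gata2+/f and 0.173 CPM in Gata2+/+. Fgr, typical of neutrophils and monocytes, was at 73.8 ± 48.7 CPM in Gata2+/f and 14.5 ± 12.1 CPM in Gata2+/+ (log2 fold change 2.35, DESeq2 adjusted p = 0.0125, SD, n = 3 each). Src, by contrast, was at 0.484 ± 0.254 CPM in Gata2+/f and 4.65 ± 1.46 CPM in Gata2+/+ (log2 fold change −3.26, DESeq2 adjusted p = 2.71e-07), low throughout. Per kb, Lyn had the highest mean of Lyn, Fgr and Fyn in both groups, with 43.1, 21.9 and 16.1 CPM per kb in Gata2+/f and 52.9, 4.31 and 24.0 CPM per kb in Gata2+/+. In Gata2+/f the range of Lyn overlapped that of Fgr.

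The class III receptors had log2 fold changes of opposite sign, 2 of the 4 that passed the filter lower and 2 higher. Flt3, the receptor for FLT3 ligand on early progenitors and dendritic cells, had 43.0, 86.6 and 50.2 CPM in Gata2+/f replicates 7, 9 and 11, against 23.6, 25.4 and 22.2 CPM in Gata2+/+ replicates 3, 5 and 6 (log2 fold change 1.34, edgeR adjusted p = 0.0991, DESeq2 adjusted p = 0.00403). Csf1r, the receptor of macrophage growth factor, was at 229 ± 116 CPM in Gata2+/f and 66.1 ± 48.8 CPM in Gata2+/+ (log2 fold change 1.79, DESeq2 adjusted p = 0.0294). Pdgfrb, a receptor of platelet-derived growth factor, lay lower with Kit (8.73 ± 5.85 CPM in Gata2+/f and 29.4 ± 4.84 CPM in Gata2+/+, log2 fold change −1.75, DESeq2 adjusted p = 0.0127). With the length trend removed the log2 fold change of Pdgfrb was −1.37 (edgeR unadjusted p = 0.0580). Per kb, Kit was at 44.3 and Csf1r at 48.7 CPM per kb in Gata2+/f, against 223 and 14.1 CPM per kb in Gata2+/+. In both groups SDs are over n = 3 libraries.

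Of 16 adaptor genes tested 8 had negative and 8 positive log2 fold changes, and the largest difference was in Lat2. At an edgeR unadjusted p under 0.05, 5 were lower and 1 higher, against 11.5% and 11.1% of all genes. The groups were separate for 5 lower and 0 higher, against 16.6% and 13.1% of all genes. Lat2 (NTAL), a membrane adaptor that Lyn and Kit phosphorylate in mast cells, had 15.8, 40.0 and 76.1 CPM in Gata2+/f replicates 7, 9 and 11, against 558, 408 and 258 CPM in Gata2+/+ replicates 3, 5 and 6 (log2 fold change −3.21, edgeR adjusted p = 0.0955, DESeq2 adjusted p = 1.61e-05). All 4 STAT genes had negative values (median −0.95). The PI3K and AKT role had 9 of 14 genes lower (median −0.28), while Pik3r5, an adaptor subunit of the gamma PI3-kinase of leukocytes, lay higher (38.2 ± 21.9 CPM in Gata2+/f and 6.82 ± 4.89 CPM in Gata2+/+, log2 fold change 2.49, DESeq2 adjusted p = 0.00231). RAS and MAP kinase genes had a median of −0.13, with 12 of 18 lower. In that role Rac2, a blood cell GTPase, was at 727 ± 199.7 CPM in Gata2+/f and 1876 ± 470.1 CPM in Gata2+/+ (log2 fold change −1.37, DESeq2 adjusted p = 0.00566). Among ubiquitin ligases and their partners 4 of 5 were lower. They included Sh3kbp1 (CIN85), which binds Cbl during receptor uptake (103 ± 31.4 CPM in Gata2+/f and 266 ± 60.4 CPM in Gata2+/+, log2 fold change −1.37, DESeq2 adjusted p = 0.00655). Phosphatases had a median of 0.049, with 5 of 8 higher.

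**Figure D4:**
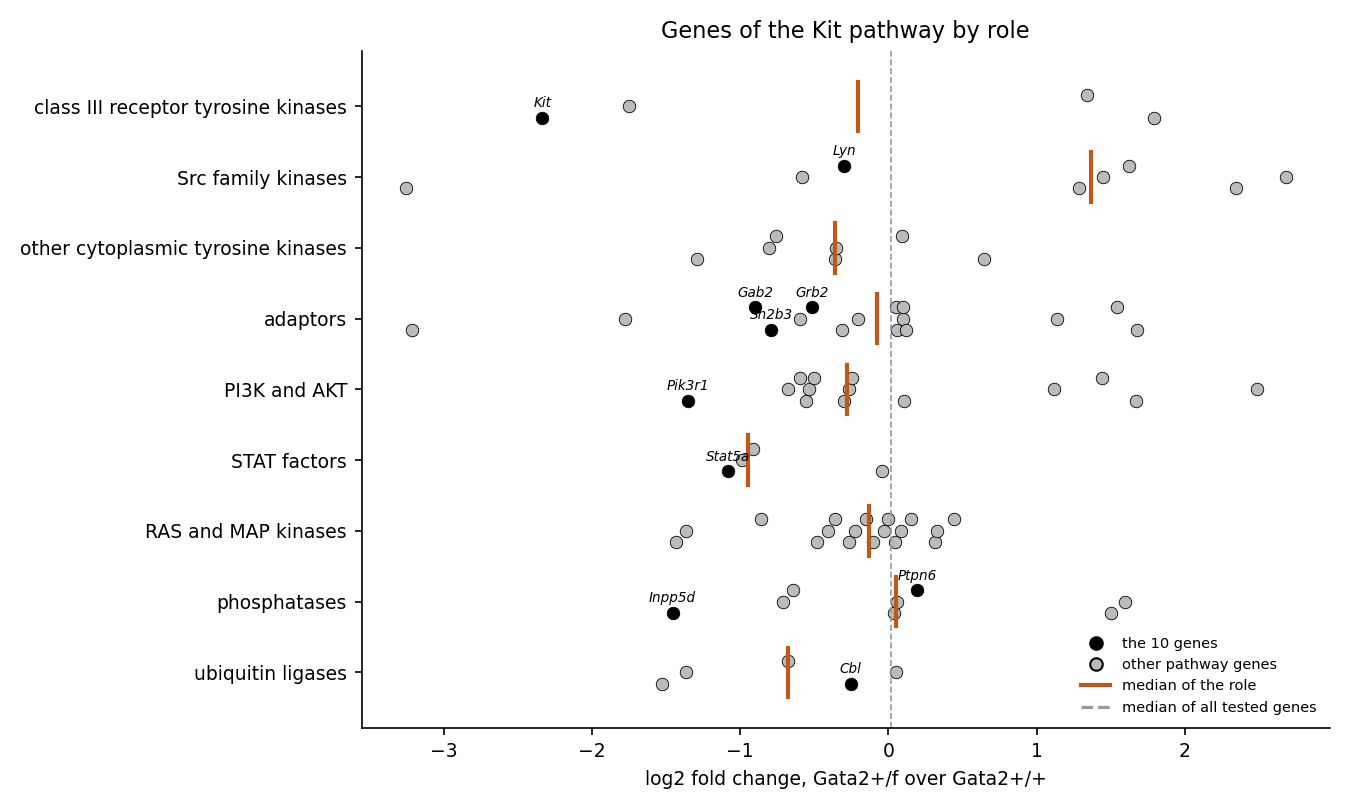
Log2 fold change of Gata2+/f over Gata2+/+ (horizontal axis) of the tested genes of each pathway role, with the 10 genes in black, other genes in grey, the median of each role in orange and that of all genes (0.019) as a dashed line. Src family kinases have the highest median (1.37) and STAT factors the lowest (−0.95), and every role but the STAT factors holds genes of both signs. The Src family median lies between Lck and Blk, both barely expressed.

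The 5 genes whose levels followed Kit most closely over the 6 libraries were Ndst2, Prkacb, Cdkn1b, Lgals8 and Txnip, with Pearson's r of log2 CPM from 0.989 to 0.998 among 9165 genes searched. The r is a description of 6 libraries that fall into the genotype groups, so genes that differ between the groups rank high. Ndst2, an enzyme of heparin synthesis in mast cells, had 332, 309 and 440.0 CPM in Gata2+/f replicates 7, 9 and 11, against 832, 1013 and 1269.6 CPM in Gata2+/+ replicates 3, 5 and 6. Like Kit, it was lowest in replicate 9 and highest in replicate 11 within Gata2+/f, and lowest in replicate 3 and highest in replicate 6 within Gata2+/+. Prkacb, a catalytic subunit of protein kinase A, was at 139 ± 40.4 CPM in Gata2+/f and 386 ± 74.6 CPM in Gata2+/+ (SD, n = 3 each). Cdkn1b, the cell cycle inhibitor p27, was at 74.9 ± 14.0 CPM in Gata2+/f and 164 ± 32.6 CPM in Gata2+/+. The sugar-binding protein gene Lgals8 was at 41.8 ± 10.4 CPM in Gata2+/f and 99.9 ± 13.3 CPM in Gata2+/+, and Txnip, an inhibitor of thioredoxin, at 715 ± 229.7 CPM in Gata2+/f and 1823 ± 441 CPM in Gata2+/+. All 5 had edgeR adjusted p from 0.0955 to 0.110.

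Markers of mast cells and late neutrophils also differed between the groups, while the sums of several other marker lists overlapped. Of 10 mast cell markers 8 passed the filter and all 8 had negative log2 fold changes (median −2.63), and their summed level over all 10 was 889 to 3966 CPM in Gata2+/f and 9390 to 11542 CPM in Gata2+/+. The other 2, Tpsab1 and Mrgprb1, were at 0 in every Gata2+/f library and low in Gata2+/+ replicates 3, 5 and 6 too, with 4, 15 and 16 counts of Tpsab1 and 0, 1 and 3 counts of Mrgprb1. Cpa3, Cma1, Fcer1a, Ms4a2 and Hdc were present in all libraries. The mast cell protease gene Cpa3 had 96.8, 151 and 1454 CPM in Gata2+/f replicates 7, 9 and 11, against 2318, 3690.2 and 3549.8 CPM in Gata2+/+ replicates 3, 5 and 6. The log2 fold change of Cpa3 was −2.49 (edgeR adjusted p = 0.198), and −4.65 without Gata2+/f replicate 11 (edgeR adjusted p = 0.0255). Replicate 11 was nearer to Gata2+/+ for Cpa3 than for Kit. Per 1000 CPM of the summed mast cell markers, Kit was at 175, 197 and 82.8 CPM in Gata2+/f replicates 7, 9 and 11. In Gata2+/+ replicates 3, 5 and 6 it was at 80.8, 130.1 and 127 CPM. This ratio lay above every Gata2+/+ value in Gata2+/f replicates 7 and 9, and within the Gata2+/+ range in replicate 11. It depends on the markers summed, as the log2 fold change was −5.39 for Cma1 and −1.79 for Hdc, against −2.34 for Kit. What the ratio says of mast cell content was not tested. Ms4a2, the beta chain of the IgE receptor, had overlapping groups (677, 345 and 957 CPM in Gata2+/f, against 969.7, 815 and 1041 CPM in Gata2+/+).

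Markers of late neutrophils lay higher, with 10 of 10 positive and sums of 4001 to 8000 CPM in Gata2+/f and 151 to 443 CPM in Gata2+/+. Monocyte and macrophage markers were 9 of 9 positive, with sums of 959 to 2409 CPM in Gata2+/f and 316 to 984 CPM in Gata2+/+, which overlapped. Stem and progenitor markers were 4 of 8 lower, with sums of 416 to 614 CPM in Gata2+/f and 317 to 533 CPM in Gata2+/+, so those sums overlapped. Megakaryocyte markers summed to 24.3 to 130.3 CPM in Gata2+/f and 498 to 669 CPM in Gata2+/+. Itga2b alone made up most of these sums, with 20.4, 97.1 and 106 CPM in Gata2+/f replicates 7, 9 and 11, against 647, 625 and 495 CPM in Gata2+/+ replicates 3, 5 and 6. Of the 6 markers that passed the filter 3 had positive log2 fold changes. Granulocyte progenitor markers were 6 of 6 positive (median log2 fold change 1.77). They summed to 2265 to 11481 CPM in Gata2+/f and 912 to 3234 CPM in Gata2+/+, again with overlap. The highest of these sums was that of Gata2+/f replicate 9, against 2265 and 2654 CPM in replicates 7 and 11. Erythroid sums were 3843 to 7002 CPM in Gata2+/f and 7600.2 to 10593 CPM in Gata2+/+. Basophil sums overlapped, with 8.74 to 57.4 CPM in Gata2+/f and 32.9 to 115 CPM in Gata2+/+. B lineage sums were 15.6 to 24.3 CPM in Gata2+/f and 3.44 to 9.52 CPM in Gata2+/+, and T and NK sums stayed at or under 3.53 CPM in all libraries. The part of these cell types in the levels of Kit and the other 9 genes was not tested.

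**Figure D5:**
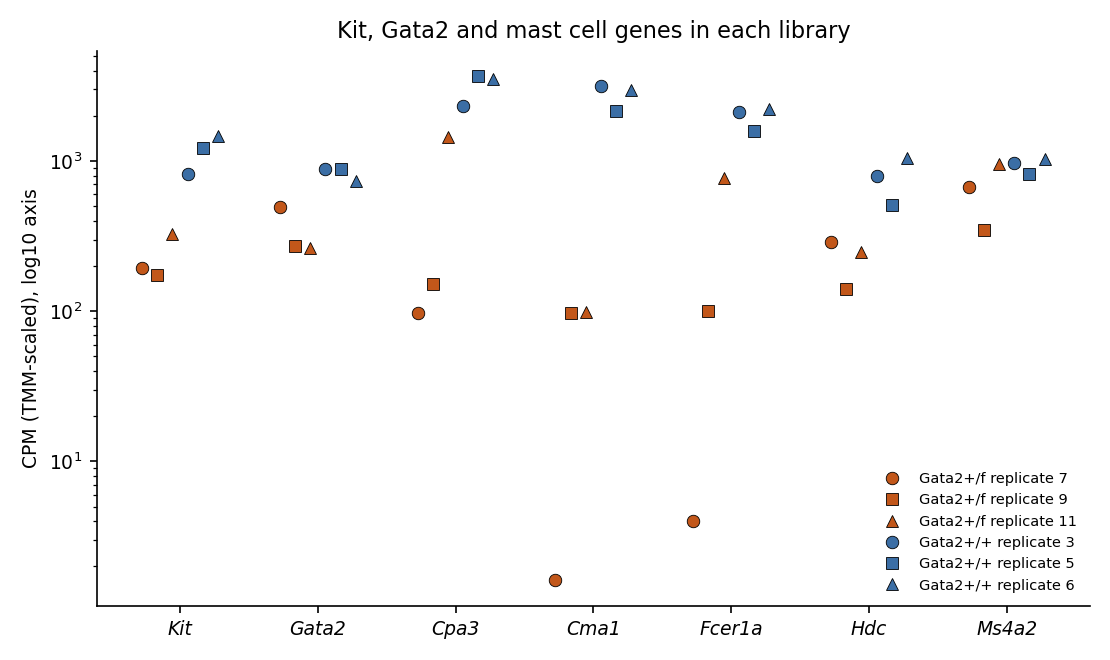
TMM-scaled CPM (vertical axis, log10 scale) of Kit, Gata2 and 5 mast cell genes in 3 Gata2+/f (orange) and 3 Gata2+/+ (blue) libraries, with marker shapes for replicates. Gata2+/f replicate 11 has 1454 CPM of Cpa3, near the 2318 CPM of Gata2+/+ replicate 3, but 328 CPM of Kit, against 826 CPM in that library.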

How the data were processed

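The authors' deposited table holds RSEM expected counts (estimated, partly not whole reads per Ensembl gene), without normalization. Per the submitters' processing notes, CASAVA 1.8.2, STAR 2.5.4a, RSEM 1.3.0 and GRCm38 were used. The library kit was stranded, per the labels' protocols. The annotation release and the strand setting of the counting are not given in the sources used here. Lyn, Sh2b3, Ptpn6 and Stat5a share 72 to 248 exon bases with genes of the opposite strand and are uncertain to that extent. Symbols, positions and transcript lengths (longest protein-coding transcript) came from GENCODE M21, which matched 97.5% of the IDs.

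Counts were rounded, filtered by filterByExpr (minimum count 10), scaled by TMM and tested with edgeR 4.0.16 (quasi-likelihood, two-sided, no covariate) in R 4.3.3. P-values were adjusted by Benjamini-Hochberg over all genes, with a threshold of 0.05. CPM use TMM factors. Correlations used log2 CPM (prior count 2) of genes with a mean of 3 or more. Alternatives used DESeq2 1.42.0, limma 3.58.1 (voom), other scalings and filters, unrounded counts, and 1 library left out in turn. The genes and lists were chosen with earlier results of these data known. Text names the 10 genes, paralogs, Kitl, Gata2, the 10 other pathway genes of smallest p and the 5 genes most like Kit. Other names were chosen after their values were seen, and some items are not reported here. The CPM limits at 3 counts cover counting error only, while 95% intervals come from the edgeR fit and hold the spread between libraries. Protein sequences were not used here.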

Additional observations from a re-analysis of the deposited data

How the results depend on the processing

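No paired analysis was made, because the labels name no pairing between libraries of the genotype groups. Over 15 alternatives for each of the 10 genes (150 values), 144 kept their direction and side of the threshold. With DESeq2, 4 of the 10 passed it: Kit (−2.31), Inpp5d (−1.44), Pik3r1 (−1.32) and Stat5a (−1.07), and so did Gata2 (−1.27). With adjusted p under 0.1, 2 of the 10 passed. Cbl reversed to 0.12 with the length trend removed and to 0.30 without Gata2+/f replicate 9 (range −0.66 to 0.30 with 1 library left out). Gab1 reversed to −0.34 with limma voom. With 1 library left out, these changed sign within their ranges: Gab1 (−0.42 to 0.67), Ptpn11 (−0.10 to 0.29), and the paralog ratio differences of Cbl to Cblb (−0.24 to 0.58), Ptpn6 to Ptpn11 (−0.072 to 0.51), Inpp5d to Inppl1 (−1.24 to 0.34) and Gab2 to Gab1 (−1.42 to 0.28). The cause was not tested.

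Over all genes, edgeR called 0 higher and 0 lower in Gata2+/f, with 3486 genes at an unadjusted p under 0.05. The counts were 10 higher and 9 lower without a filter, 933 and 876 with DESeq2, 8 and 1 with limma voom, 13 and 19 with the newer edgeR test, and 155 and 289 at adjusted p under 0.1. Leaving out 1 library gave 0 to 10 higher and 0 to 56 lower, the most without Gata2+/f replicate 11, where Kit had an adjusted p of 0.0539 by edgeR. Upper quartile factors put the all-gene median at 0.11 (log2), against 0.019 with TMM. With 3 libraries a group, differences as small as those of Lyn, Ptpn6 and Grb2 could not be resolved from the spread.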
